A study of Homo sapiens with 18 samples.

Results

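The histone genes of 2 human acute myeloid leukemia lines were described across 18 RNA-seq libraries, and their members were taken by symbol. Of 18670 genes in the count table, 81 had a symbol that starts with H1-, H2AC, H2BC, H3C, H4C, H2AZ, MACROH2A or H3-3, or is H2AX. Of these, 70 were counted as replication-dependent, namely 6 H1 genes (H1-1 to H1-6), 17 H2AC, 19 H2BC, 13 H3C and 15 H4C genes. The other 11 were counted as replication-independent, among them H1-7, H1-8, H1-10, H2AX, H2AZ1, H2AZ2, H3-3A, H3-3B, MACROH2A1 and MACROH2A2. The 6 groups held 3 libraries each. In U937, a monocytic line, cells carrying a lentiviral shS100A9 knockdown stood against cells with an empty vector. In THP-1, another monocytic line, cells with a lentiviral S100A9 overexpression and cells with an empty vector were each taken with Adavivint at 1 µM for 36 hours or without the drug. These 4 THP-1 groups are abbreviated as OE+Ada, EV+Ada, OE and EV. Adavivint, a small molecule, inhibits kinases of the CLK and DYRK families and was developed against Wnt signalling. All 6 groups had been transduced and then kept in puromycin at 2 µg/mL, begun 48 hours after transduction, for at least 24 hours. The labels call the empty vector genotype WT, name no solvent control for the untreated cells, and do not say whether a group came from 1 clone or from a pool.

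Histones package DNA into nucleosomes, with H2A, H2B, H3 and H4 forming the core and H1 binding the linker DNA. Replication-dependent histone genes lie in clusters, have no introns in their classical form, and are transcribed mainly in S phase to supply newly copied DNA. Their mRNAs end in a short stem-loop in place of a poly(A) tail, and that stem-loop is bound by SLBP, cut with the help of the U7 snRNP, and used again when the mRNA is degraded. Replication-independent variants are made throughout the cell cycle from ordinary polyadenylated mRNAs. Myeloid leukemia lines divide rapidly and draw on both kinds of gene.

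The stem-loop is shown because it is the feature that usually sets the 2 classes apart. Among the 66 replication-dependent genes found in GENCODE 29 on GRCh38, 28 had the 16-base element in an annotated transcript. Each form is printed with the members that carry it, with the stem arms in capitals and the loop in lower case.
H3C10, H2BC21 and 13 other genes: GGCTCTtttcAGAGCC
H4C8 and 4 other genes: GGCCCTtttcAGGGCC
H2BC4, H2BC5 and 2 other genes: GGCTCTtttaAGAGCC
H4C9, H4C14 and H4C15: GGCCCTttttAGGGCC
H2AC11: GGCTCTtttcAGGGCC
H2AX: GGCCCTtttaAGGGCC
In H3C10 the element lay at chr6:27810516-27810531 on the plus strand, inside its single exon and 769 bases before the annotated end. In H2BC21 it lay at chr1:149886188-149886203 on the minus strand, 1729 bases before the annotated end. In 22 of the 28 genes an annotated transcript ran more than 100 bases past the stem-loop. H2AX, at chr11:119094898-119094913 on the minus strand, was the only replication-independent member with the element among the 11 searched. Some of the other members, H2BC12, H2BC17 and H1-2 among them, are annotated with coding sequence alone, so a missing match there says nothing of the gene.

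Promoters of 64 replication-dependent and 10 replication-independent members were matched in RefSeq (GRCh38.p14), each as 250 bases before to 50 bases after the annotated start. They were searched on both strands for 4 motifs, the TATA box as TATAAA, the CCAAT box by its name's letters, the core of the octamer that OCT-family factors bind as TTTGCAT, and the E box as CACGTG. Matches may overlap each other. The TATA box was present in 42 of 64 replication-dependent and 4 of 10 replication-independent promoters, and in 12.0% of all 27305 promoters of that length. The CCAAT box was present in 54 of 64 and 7 of 10, and in 35.7% of all. The octamer core was present in 26 of 64 and 1 of 10, and in 4.51% of all, and its matches were uneven between families. It stood in 77.8% of H2B and 68.8% of H2A promoters, in 9.09% of H3 promoters and in 0% of H4 and H1 promoters. The 1 H3 match was in H3C4, whose window, chr6:26199244-26199543, is also that of H2AC7. Windows of H2A and H2B genes that start side by side overlap, so 1 site can count for both families, as in H2AC6 and H2BC4. The E box was in 0 of 64 and 0 of 10, and in 7.43% of all, which says only that these letters are not in these windows. A match of letters is a description and not a binding site. The promoters below belong to the H3 gene with the strongest drug test, to 3 genes that start beside a histone gene on the other strand, and to H2AZ1 as a member that fell. They are written 5′ to 3′ on the gene's strand, with every match to the TATA box, the CCAAT box or the octamer core on either strand in capitals.
H3C10, chr6:27809801-27810100, plus strand: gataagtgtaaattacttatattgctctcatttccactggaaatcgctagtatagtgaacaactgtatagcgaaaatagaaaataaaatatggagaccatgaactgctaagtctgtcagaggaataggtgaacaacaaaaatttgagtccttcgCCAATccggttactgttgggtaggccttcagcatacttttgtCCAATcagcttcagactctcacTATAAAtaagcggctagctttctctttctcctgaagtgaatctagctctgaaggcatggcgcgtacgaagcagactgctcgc
H2BC12, chr6:27146809-27147108, minus strand: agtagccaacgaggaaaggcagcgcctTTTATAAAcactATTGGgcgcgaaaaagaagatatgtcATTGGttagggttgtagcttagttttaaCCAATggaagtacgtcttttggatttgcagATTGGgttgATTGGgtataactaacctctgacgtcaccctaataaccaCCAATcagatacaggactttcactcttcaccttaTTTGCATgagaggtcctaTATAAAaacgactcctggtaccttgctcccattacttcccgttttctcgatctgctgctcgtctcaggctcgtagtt
H2BC21, chr1:149886633-149886932, minus strand: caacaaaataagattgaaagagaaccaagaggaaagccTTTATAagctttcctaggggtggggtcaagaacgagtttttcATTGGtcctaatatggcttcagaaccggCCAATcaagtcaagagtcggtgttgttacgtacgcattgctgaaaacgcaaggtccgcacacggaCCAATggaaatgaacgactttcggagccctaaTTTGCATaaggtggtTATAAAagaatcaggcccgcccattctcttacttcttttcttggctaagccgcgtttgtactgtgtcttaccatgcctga
H2AC6, chr6:26123922-26124221, plus strand: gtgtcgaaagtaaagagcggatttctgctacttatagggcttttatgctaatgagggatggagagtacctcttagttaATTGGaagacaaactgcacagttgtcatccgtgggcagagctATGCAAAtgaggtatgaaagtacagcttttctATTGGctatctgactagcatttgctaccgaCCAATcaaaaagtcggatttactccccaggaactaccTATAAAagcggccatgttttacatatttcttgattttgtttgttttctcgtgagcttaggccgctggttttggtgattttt
H2AZ1, chr4:99950226-99950525, minus strand: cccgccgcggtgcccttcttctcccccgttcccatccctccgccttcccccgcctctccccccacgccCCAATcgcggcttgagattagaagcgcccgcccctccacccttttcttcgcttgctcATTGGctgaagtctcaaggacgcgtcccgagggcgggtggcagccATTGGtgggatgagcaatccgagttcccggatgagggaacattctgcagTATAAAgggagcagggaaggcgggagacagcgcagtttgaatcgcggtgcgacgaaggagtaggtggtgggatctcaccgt

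Library totals ran from 38433169 to 45288579 counts in drug-treated THP-1, from 49722581 to 84409062 in untreated THP-1 and from 41889914 to 82007650 in U937. Levels are given in CPM, a gene's counts scaled by the TMM-normalised library total. The labels do not say whether the 3 libraries of a group came from separate cultures, and the spread behind every p-value here may be technical. The vectors were checked by S100A9, which averaged 0.225 ± 0.170 CPM in shS100A9 U937 cells and 6.14 ± 1.44 CPM in empty vector U937 cells. In untreated THP-1 it averaged 28.1 ± 1.57 CPM with overexpression and 6.38 ± 2.79 CPM with the empty vector (SD, n = 3 libraries each). Library 2 of U937 empty vector and library 3 of shS100A9 stood apart from the others of their groups, their counts deviating from the others of the group by a chi-square of 135 to 225 per degree of freedom, against 8.05 and 13.1 between the remaining pairs. Results in U937 are therefore given with and without these 2 libraries. Of 11 myeloid markers, PTPRC, LYZ, SPI1 and CEBPA had at least 64.6 CPM in every library, while CD14 stayed at or below 0.487 CPM without the drug and reached 22.2 CPM with it. The rest of the 11 are not given by level, so those named do not stand for the list. By edgeR at an adjusted p below 0.05, 4 of the 11 were higher and 5 lower under the drug with each vector. Over all tested genes the shares were 43.4% higher and 41.3% lower with overexpression, and 44.2% and 41.1% with the empty vector. Of 10 epithelial, lymphoid and erythroid markers, KRT17, KRT14 and CLDN7 reached 7.50, 3.27 and 1.52 CPM and the other 7 at most 0.267 CPM. The part of these markers in any histone result was not tested. In bulk libraries, fewer cells of a type and less RNA per cell cannot be told apart.

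Replication-dependent histone genes had a far larger share of the counts in Adavivint-treated than in untreated THP-1 libraries, with either vector. CPM is relative to the library, so it gives no amount per cell. It is also not known whether RNA was selected by poly(A), so the form of the counted histone mRNA cannot be told. The 70 genes together reached 627 ± 14.6 CPM in drug-treated overexpressing cells and 593 ± 23.4 CPM in drug-treated empty vector cells, against 39.5 ± 1.86 CPM in untreated overexpressing cells and 45.9 ± 4.63 CPM in untreated empty vector cells (SD, n = 3). The ratio of the mean sums was 15.9 with overexpression and 12.9 with the empty vector, and no treated library came near an untreated one. The 11 replication-independent genes together went the other way, with 1717 ± 49.8 and 1611 ± 17.3 CPM under the drug, against 2358 ± 87.6 CPM in untreated overexpressing and 2171 ± 144 CPM in untreated empty vector cells. Their ratios were 0.728 and 0.742.

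**Figure D1:**
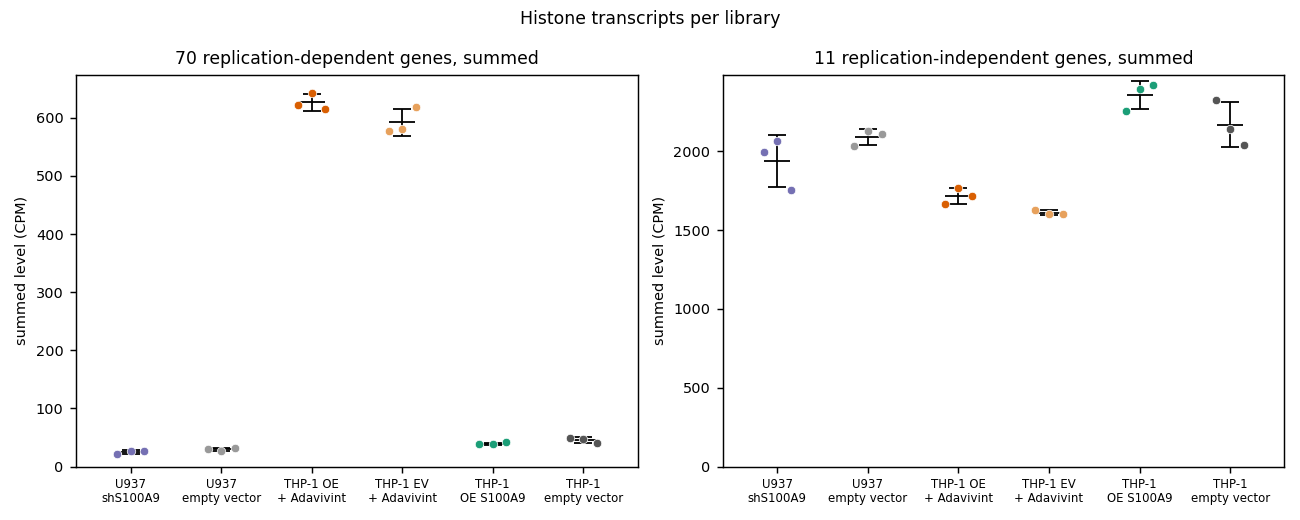
Summed level in CPM of the 70 replication-dependent (left) and 11 replication-independent (right) histone genes in each library. Points are libraries, and bars give the mean and SD of 3. The Adavivint-treated THP-1 libraries stand far above the other libraries on the left and below all untreated THP-1 libraries on the right.

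By family, the summed H3C genes had the highest drug ratio, 50.4 with overexpression and 46.4 with the empty vector. The H2BC genes followed with 22.6 and 17.7, the H2AC genes with 11.8 and 10.7, the H4C genes with 7.56 and 6.46, and the H1 genes with 7.02 and 4.65. Per exon length, where genes can be compared, 66 replication-dependent genes with a length summed to 816 ± 24.8 CPM per kilobase in drug-treated overexpressing cells, above the 489 ± 12.5 CPM per kilobase of the 11 replication-independent genes. In untreated overexpressing cells the same sums were 46.3 ± 2.06 and 691 ± 27.4 CPM per kilobase, so that by this measure the order was reversed. The lengths join all annotated exons of a gene. For many replication-dependent members these are coding sequence alone, as the 381 bases of H2BC12, which can raise levels per kilobase. For variants they can exceed any 1 transcript, as in MACROH2A1 with 17730 bases and a longest transcript of 10982, which can lower them. By CPM the classes kept their order, with 1717 against 627 CPM for the replication-independent and replication-dependent sums in drug-treated overexpressing cells.

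Single genes followed the sums. In overexpressing cells 54 of the 70 replication-dependent genes passed the filter on low counts, of which 52 were higher under the drug and 0 lower (edgeR quasi-likelihood test, adjusted p below 0.05 over 15403 genes). The drug changed most tested genes, and 43.4% of all of them were higher and 41.3% lower in that comparison. In empty vector cells 53 of 54 were higher and 0 lower, where 44.2% of all tested genes were higher and 41.1% lower. The median log2 fold change of the tested replication-dependent genes was 3.93 with overexpression and 3.60 with the empty vector, beside 0.04 and 0.06 over all tested genes. Members that passed the filter only through the treated libraries had to differ, so these shares do not stand for all 70. On the untreated THP-1 libraries alone 29 of the 70 would have passed, and of these 28 were higher with overexpression and 29 with the empty vector, with medians of 3.59 and 3.51. Over all 70 members, tested or not, every treated library lay above every untreated one for 54 genes with overexpression and for 56 with the empty vector. That pattern was met by 39.8% and 38.6% of all 18670 genes.

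**Figure D2:**
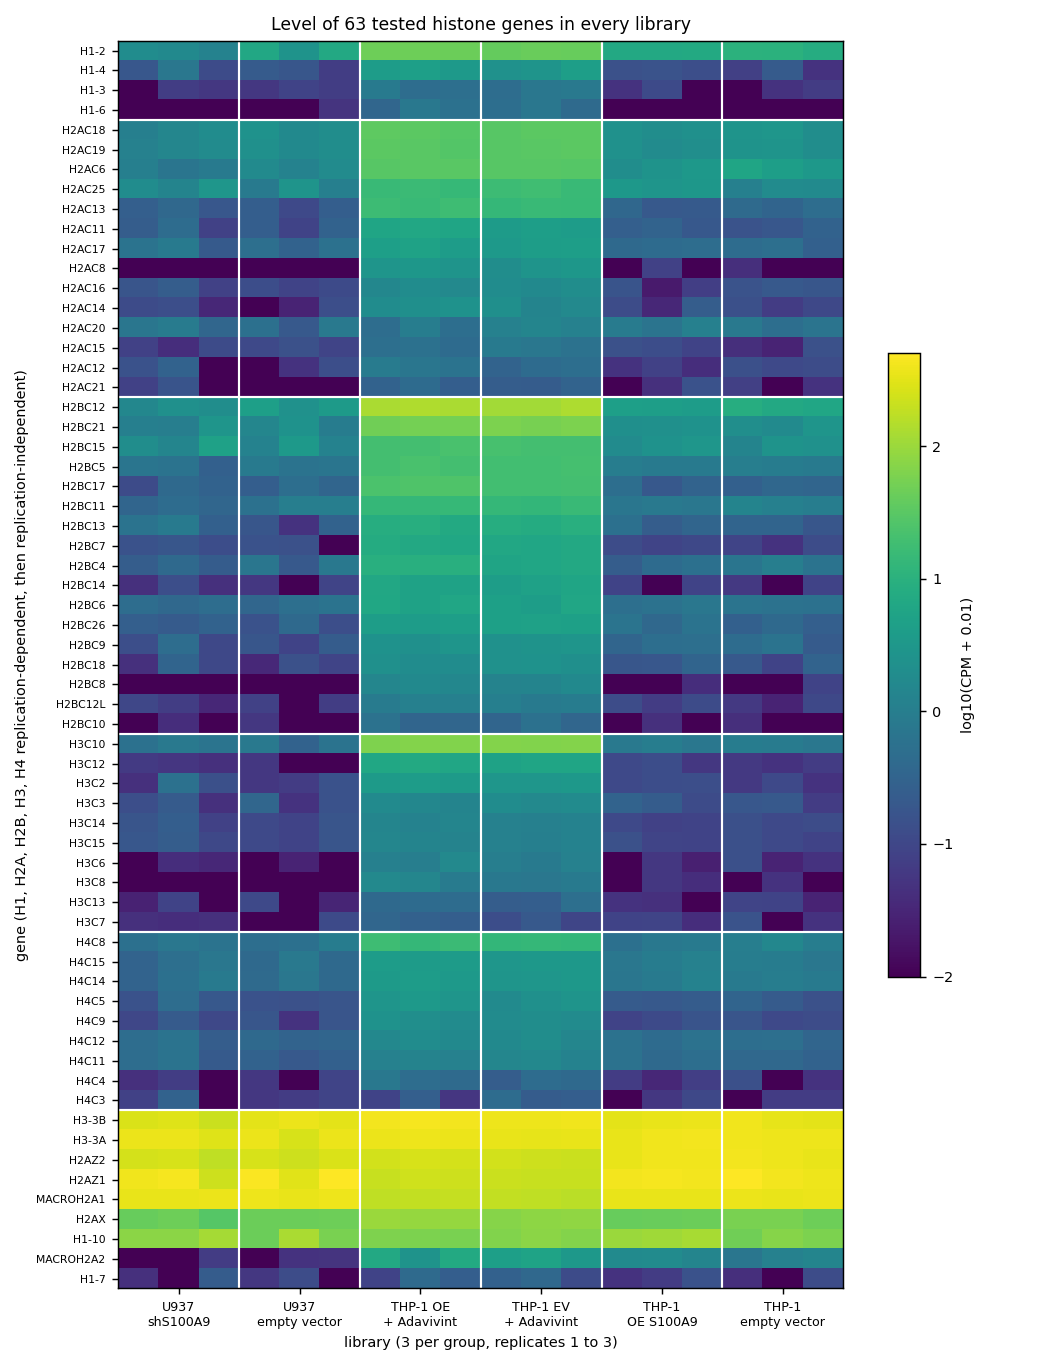
Level of 63 histone genes tested in THP-1, as log10(CPM + 0.01), in each of the 18 libraries. Rows run by family and fall by level under Adavivint with the empty vector, and columns run by group. Most replication-dependent rows are darker in the 4 untreated groups than in the 6 treated libraries, with H2AC20 among the exceptions. The lowest block, the replication-independent genes, is light throughout apart from MACROH2A2 and H1-7.

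The core histone H3C10 gave the smallest p of the class with both vectors. Its level was 62.1, 68.8 and 65.9 CPM in OE+Ada and 66.7, 64.3 and 68.8 CPM in EV+Ada cells, against 0.778, 0.979 and 0.713 CPM in OE and 0.9496, 0.914 and 0.736 CPM in EV cells. All 6 untreated libraries were below 1 CPM and far below all 6 treated ones. The log2 fold change was 6.29 ± 0.10 (SE) with overexpression (adjusted p = 1.06e-14) and 6.26 ± 0.11 with the empty vector (adjusted p = 1.31e-14). H2BC12, an H2B gene, had the highest level of the class per exon length, with 348 CPM per kilobase in OE+Ada and 312 in EV+Ada cells, against 11.2 in OE and 18.9 in EV cells. Its annotated exon holds coding sequence alone. By library it had 129.7, 139 and 129.7 CPM in OE+Ada and 113, 112 and 132 CPM in EV+Ada cells, against 4.48, 4.35 and 3.99 CPM in OE and 8.65, 6.95 and 5.96 CPM in EV cells. The treated and untreated libraries did not overlap, and the log2 fold changes were 4.96 ± 0.12 (adjusted p = 1.32e-13) and 4.04 ± 0.11 (adjusted p = 5.09e-13). Of the 50-base words in H2BC12, 74.1% are shared with other genes, most often with H2BC12L, so that its reads may be split or lost by the counting.

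H2BC21, H2BC5 and H2BC17, 3 further H2B genes, rose as well. H2BC21 had 47.6, 53.7 and 54.0 CPM in OE+Ada and 60.5, 55.9 and 60.8 CPM in EV+Ada cells, against 2.18, 2.34 and 2.47 CPM in OE and 2.08, 1.75 and 2.83 CPM in EV cells. H2BC5 had 20.1, 22.5 and 20.3 CPM in OE+Ada and 18.9, 18.8 and 20.9 CPM in EV+Ada cells, against 0.993, 0.826 and 0.839 CPM in OE and 1.03, 0.953 and 0.871 CPM in EV cells. H2BC17 had 23.7, 25.8 and 25.4 CPM in OE+Ada and 19.3, 19.0 and 19.8 CPM in EV+Ada cells, against 0.487, 0.189 and 0.301 CPM in OE and 0.267, 0.357 and 0.329 CPM in EV cells. None of the 3 showed overlap between treated and untreated libraries. Their log2 fold changes with overexpression were 4.47 ± 0.12, 4.57 ± 0.11 and 6.34 ± 0.19, and with the empty vector 4.73 ± 0.13, 4.35 ± 0.11 and 5.93 ± 0.19, with adjusted p of at most 2.36e-12.

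The H2A genes H2AC18 and H2AC19 are near-identical copies whose reads could be shared. H2AC18 had 33.9, 32.7 and 28.8 CPM in OE+Ada and 30.2, 33.0 and 33.5 CPM in EV+Ada cells, against 2.41, 1.99 and 2.25 CPM in OE and 2.67, 2.90 and 2.05 CPM in EV cells, and H2AC19 had 33.4, 32.2 and 28.1 CPM in OE+Ada and 29.9, 31.6 and 32.8 CPM in EV+Ada cells, against 2.37, 1.89 and 2.12 CPM in OE and 2.60, 2.70 and 2.01 CPM in EV cells. Treated and untreated libraries did not overlap, and the log2 fold changes with overexpression and the empty vector were 3.85 ± 0.12 and 3.66 ± 0.12 for H2AC18 and 3.88 ± 0.12 and 3.69 ± 0.12 for H2AC19. The linker histone H1-2 held the largest share of the class's CPM sum in untreated THP-1, 17.8% in OE and 20.9% in EV cells. It had 46.5, 47.3 and 44.3 CPM in OE+Ada and 39.6, 42.2 and 41.5 CPM in EV+Ada cells, against 6.93, 6.89 and 7.32 CPM in OE and 10.6, 10.1 and 8.06 CPM in EV cells. The groups did not overlap, and the log2 fold changes were 2.71 ± 0.09 with overexpression (adjusted p = 2.53e-12) and 2.09 ± 0.09 with the empty vector (adjusted p = 2.62e-11).

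**Figure D3:**
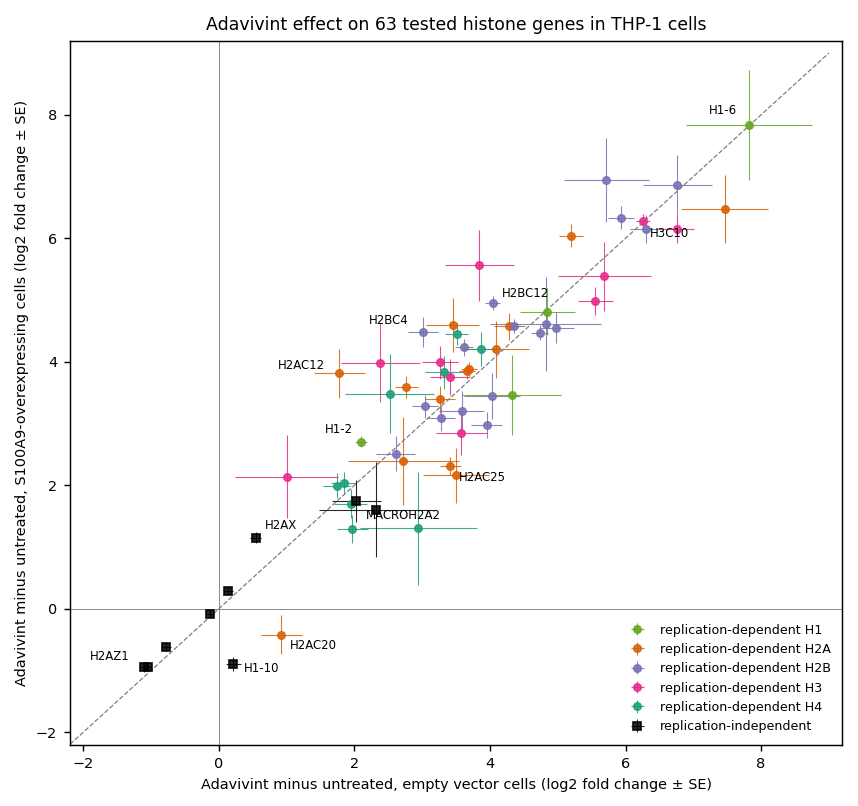
Log2 fold change (Adavivint minus untreated, with SE) of 63 histone genes tested in THP-1, in empty vector cells (x) and in S100A9-overexpressing cells (y), coloured by family. Points on the dashed line changed equally with both vectors. Replication-dependent genes fill the upper right, H2AC20 is the exception below 0 on the y axis, and H1-10 falls below the line; the fitted value of H1-6 is no measure of its fold, since it had 0 counts without the drug.

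More replication-dependent genes became measurable under the drug. In each treated library 41 to 43 of the 70 reached 1 CPM and 14 reached 10 CPM, against 8 to 11 and 0 to 1 in each untreated THP-1 library. The mRNA was nevertheless spread over few genes in all 4 THP-1 groups, with the 5 genes of highest CPM holding 52.3% of the class sum in OE+Ada and 53.7% in EV+Ada cells, against 49.3% in OE and 57.1% in EV cells. Testis linker histone H1-6 had 67 counts in drug-treated overexpressing cells, against 0 in untreated overexpressing cells, at least 37.1-fold higher by a floor of 3 counts over the group. In empty vector cells it had 73 counts under the drug against 0, at least 29.8-fold higher. H2AC8 had 346 counts in drug-treated empty vector cells against 2 in untreated ones, a ratio of 212 with an exact 95% counting interval of 58.1 to 1754. H2BC8 had 185 counts in drug-treated overexpressing cells against 2, a ratio of 154 (interval 41.9 to 1277). These ratios rest on few counts without the drug and the intervals cover counting error alone.

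A few members did not follow. H2AC20, an H2A gene, had 0.480, 0.986 and 0.50 CPM in drug-treated overexpressing cells, against 0.895, 0.649 and 1.09 CPM in untreated ones, with a log2 fold change of -0.42 ± 0.31 (adjusted p = 0.226). With the empty vector it had 1.14, 1.40 and 1.14 CPM under the drug, against 0.800, 0.496 and 0.639 CPM, a log2 fold change of 0.92 ± 0.31 (adjusted p = 0.0123). Its libraries overlapped with overexpression and did not with the empty vector. Of its 50-base words 30.5% are shared with other genes, so its reads may be split or lost by the counting. Without library 2 of the drug-treated overexpressing cells H2AC20 was called lower at -0.83 ± 0.32, and without untreated empty vector library 2 its rise was no longer called, at 0.77 ± 0.34. H4C3 with overexpression and H3C7 with the empty vector were the other tested genes that missed the threshold, at 1.30 ± 0.91 and 1.00 ± 0.76 on the log2 scale, with at most 0.451 CPM in any library. H3C7 passed it without untreated empty vector library 1, at 2.65 ± 0.93. The 16 untested members had at most 24 counts in any group of drug-treated or untreated THP-1 cells, and H2AC7 was the 1 replication-dependent member with every treated library below every untreated one with the empty vector, a pattern met by 34.6% of all genes.

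The variants moved each in its own way. H2AX, a variant that is phosphorylated at DNA breaks, was the abundant replication-independent member that rose with both vectors. It had 99.8, 90.9 and 93.5 CPM in OE+Ada and 70.9, 80.2 and 82.8 CPM in EV+Ada cells, against 41.6, 42.0 and 44.6 CPM in OE and 58.4, 56.8 and 45.6 CPM in EV cells. The groups did not overlap, with log2 fold changes of 1.15 ± 0.09 (adjusted p = 1.37e-08) and 0.54 ± 0.09 (adjusted p = 3.96e-05). It was also the variant whose annotated transcript carries the stem-loop printed above. MACROH2A2, a macroH2A paralog, was low, with 6.96, 2.65 and 7.09 CPM in OE+Ada and 4.47, 5.41 and 3.19 CPM in EV+Ada cells, against 1.77, 1.84 and 1.36 CPM in OE and 0.683, 1.17 and 1.36 CPM in EV cells. Treated and untreated libraries did not overlap. It rose by 1.75 ± 0.34 and 2.03 ± 0.36 on the log2 scale (adjusted p = 0.000272 and 0.000106), and its exons overlap those of AIFM2.

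H2AZ1 and H2AZ2, which encode the H2A.Z variant found at promoters, fell. H2AZ1 had 207, 236 and 225 CPM in OE+Ada and 210.1, 202 and 204 CPM in EV+Ada cells, against 425, 438 and 427 CPM in OE and 509, 425 and 389.5 CPM in EV cells. H2AZ2 had 240.1, 260.4 and 258 CPM in OE+Ada and 240.0, 227 and 214 CPM in EV+Ada cells, against 363, 396 and 405 CPM in OE and 429, 383 and 352 CPM in EV cells. MACROH2A1, a variant with a large macro domain, had 182, 187 and 195 CPM in OE+Ada and 188, 177 and 168 CPM in EV+Ada cells, against 363, 362 and 360.0 CPM in OE and 378, 359 and 368 CPM in EV cells. In all 3 genes every treated library was below every untreated one. The log2 fold changes with overexpression and with the empty vector were -0.95 ± 0.08 and -1.10 ± 0.08 for H2AZ1, -0.62 ± 0.07 and -0.78 ± 0.07 for H2AZ2, and -0.94 ± 0.05 and -1.05 ± 0.05 for MACROH2A1, with adjusted p of at most 1.64e-06.

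H3-3A and H3-3B both encode H3.3, the H3 variant placed outside replication, and changed little. H3-3A had 363, 389 and 368 CPM in OE+Ada and 359.8, 345 and 359 CPM in EV+Ada cells, against 359, 408 and 416 CPM in OE and 403, 384 and 379 CPM in EV cells, and its log2 fold change was -0.08 ± 0.06 with overexpression (adjusted p = 0.198) and -0.13 ± 0.06 with the empty vector (adjusted p = 0.0403). H3-3B had 417, 443 and 424 CPM in OE+Ada and 388, 381 and 401 CPM in EV+Ada cells, against 329, 356 and 365 CPM in OE and 401, 337 and 324 CPM in EV cells, with log2 fold changes of 0.29 ± 0.07 (adjusted p = 0.00146) and 0.14 ± 0.07 (adjusted p = 0.0724). The groups did not overlap for H3-3B with overexpression and for H3-3A with the empty vector, and overlapped otherwise. The call of H3-3B with overexpression was kept in 14 of 14 alternatives, at 0.22 to 0.39. The call of H3-3A with the empty vector was lost without any 1 of 5 of the 6 libraries (-0.14 to -0.11), while with overexpression its value was 0.02 with upper-quartile factors and called at -0.15 without untreated library 1. H3-3B with the empty vector was called at 0.24 without untreated library 1. The summed level of the pair was 1.08 and 1.00 times that without the drug, overexpressing and empty vector, beside 50.4 and 46.4 times for the H3C genes. Of the germline members, H1-7 had 0.0800, 0.415 and 0.250 CPM in OE+Ada and 0.285, 0.378 and 0.110 CPM in EV+Ada cells, against 0.0389, 0.0590 and 0.143 CPM in OE and 0.0333, 0 and 0.116 CPM in EV cells. It passed the test with the empty vector, at 2.32 ± 0.85 (adjusted p = 0.0206), but not without untreated library 1 or 2 or treated library 2 (1.79 to 2.08), and the value was 3.67 without untreated library 3. With overexpression it missed the threshold at 1.60 ± 0.77 (adjusted p = 0.0666) and passed it without untreated library 3 (2.24) or treated library 1 (2.00). H1-8 had too few counts to be tested.

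**Figure D4:**
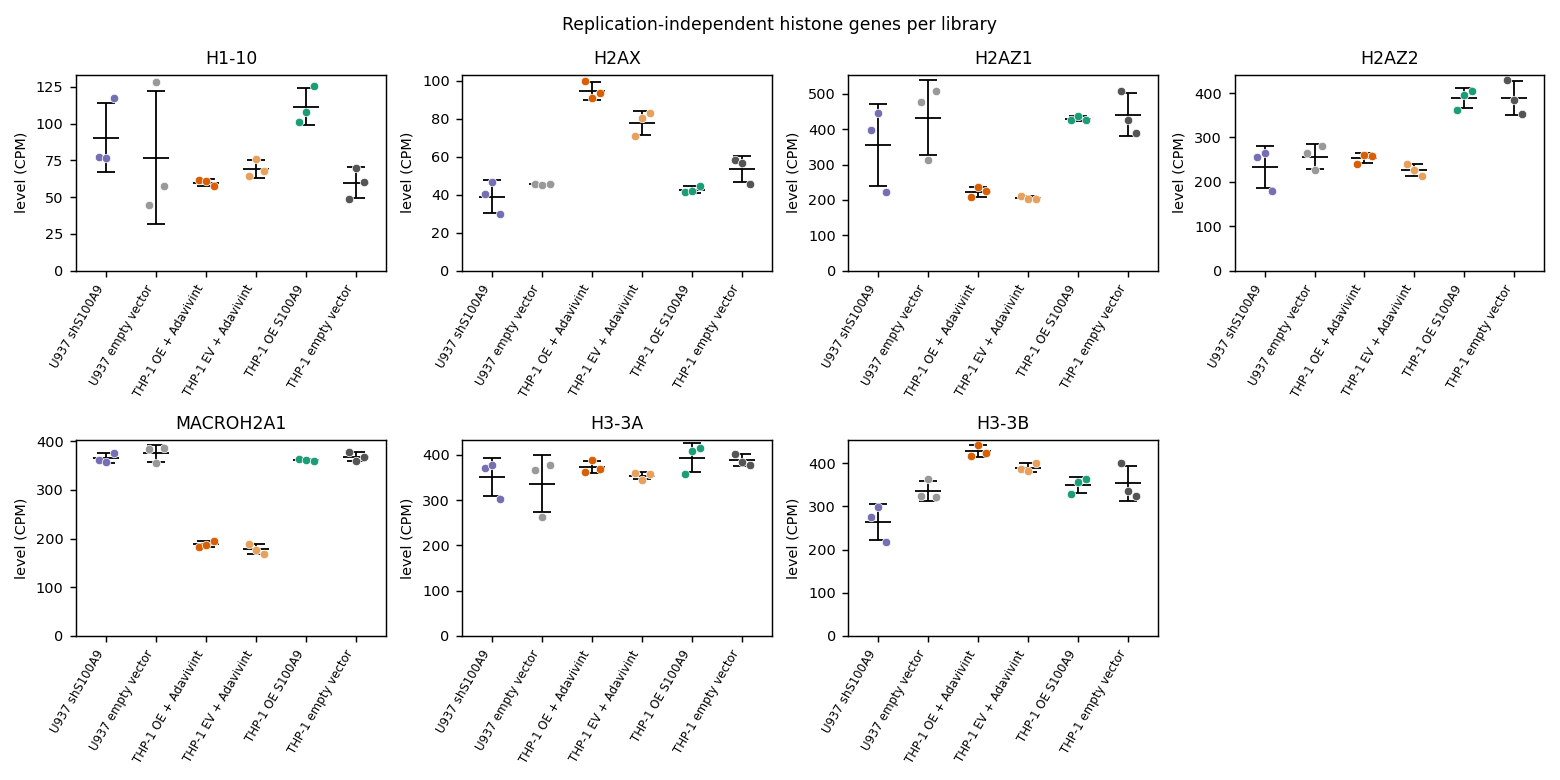
Level in CPM of 7 replication-independent histone genes in each library, with points for libraries and bars for the mean and SD of 3. In THP-1, H2AZ1, H2AZ2 and MACROH2A1 are lower and H2AX is higher in both treated groups, and H1-10 stands highest in untreated overexpressing cells among the THP-1 groups. In U937 the wide bars of H1-10 and H2AZ1 come from 1 library of each group.

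The linker histone H1-10 differed between the vectors. It had 61.5, 60.7 and 57.3 CPM under the drug, against 101, 108 and 126 CPM in untreated overexpressing cells. In empty vector cells it had 64.1, 76.0 and 67.9 CPM under the drug, against 49.0, 70.02 and 60.2 CPM. The overexpressing groups did not overlap while the empty vector groups did. Its log2 fold changes were -0.90 ± 0.11 and 0.22 ± 0.11 (0.34 and called without untreated empty vector library 2) and their difference was -1.12 ± 0.16 (adjusted p = 0.000902).

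S100A9 overexpression by itself changed a minority of the tested replication-dependent genes. In untreated THP-1 their sum was 39.5 ± 1.86 CPM with overexpression and 45.9 ± 4.63 CPM with the empty vector. Of 54 tested genes 2 were higher and 7 lower, where 14.9% of all tested genes were higher and 13% lower. Some of the 54 passed the filter only through the drug-treated libraries. Of the 29 that would have passed on the untreated THP-1 libraries alone, 2 were higher and 7 lower. The 7 that fell were H2BC12 (-0.76 on the log2 scale), H1-2 (-0.45), H2BC11 (-0.62), H2AC6 (-0.75), H4C8 (-0.70), H2BC4 (-0.89) and H2AC13 (-0.68). H2BC12 had the smallest p of these, with 4.48, 4.35 and 3.99 CPM with overexpression, against 8.65, 6.95 and 5.96 CPM with the empty vector and no overlap (adjusted p = 0.000787). The H2A gene H2AC6 had 2.06, 2.64 and 3.17 CPM, against 5.75, 4.33 and 3.20 CPM, where the highest overexpressing library lay just under the lowest empty vector one (adjusted p = 0.00766). The H2B gene H2BC11 had 0.701, 0.791 and 0.713 CPM, against 1.32, 1.11 and 0.968 CPM (adjusted p = 0.00671), and the H4 gene H4C8 had 0.525, 0.755 and 0.839 CPM, against 1.03, 1.47 and 0.988 CPM (adjusted p = 0.0173). Neither overlapped. Leaving out 1 library ended the calls of H2BC4 (untreated empty vector library 2, overexpressing library 1 or 2, -0.95 to -0.65), H4C8 (empty vector library 2 or overexpressing library 1, -0.54 to -0.50) and H2AC13 (any of 4 libraries, -0.65 to -0.51).

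The 2 genes that rose with overexpression were neighbours on chromosome 1. H2AC25 had 3.29, 2.86 and 3.07 CPM with overexpression, against 1.12, 1.85 and 1.78 CPM with the empty vector, with a log2 fold change of 0.96 ± 0.16 (adjusted p = 0.000943). H2BC26 had 0.642, 0.378 and 0.602 CPM, against 0.267, 0.397 and 0.252 CPM, with a log2 fold change of 0.80 ± 0.24 (adjusted p = 0.0257). The libraries overlapped in H2BC26 and not in H2AC25, and the call of H2BC26 was lost without empty vector library 1 or 3 or overexpressing library 1 or 3, at 0.67 to 0.71. Among the variants, H1-10 rose by 0.90 ± 0.11 (adjusted p = 0.000182) and H2AX fell by 0.33 on the log2 scale (adjusted p = 0.0127), a call that was lost without empty vector library 1 or 2, at -0.26 and -0.28.

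Epithelial markers rose with H1-10 in the overexpression comparison without the drug, and went different ways under the drug. Of 6 listed, 3 were tested in THP-1, and KRT14, KRT17 and CLDN7 were each higher with overexpression without the drug, by 1.15 ± 0.27, 1.53 ± 0.17 and 1.24 ± 0.34 on the log2 scale (adjusted p at most 0.0157). In overexpressing cells under the drug, KRT14 fell by 3.48 ± 0.33 and CLDN7 by 1.08 ± 0.34, while KRT17 was 0.12 ± 0.16 (adjusted p = 0.499). With the empty vector, KRT14 was -2.95 ± 0.35, KRT17 1.26 ± 0.17 and CLDN7 0.11 ± 0.36 (adjusted p = 0.789), and 1 of the 3, KRT17, passed the interaction test, at -1.14 ± 0.24 (adjusted p = 0.00669). The summed level of the 6 markers was 7.14 to 8.41 CPM in OE+Ada and 5.18 to 6.82 CPM in EV+Ada cells, against 9.88 to 11.3 CPM in OE and 3.17 to 5.67 CPM in EV cells. KRT8, KRT18 and CDH1, which define simple epithelia, had at most 0.218 CPM in any THP-1 library, and KRT18 was at 0 in 11 of the 12. The part of these markers in the histone values was not tested.

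Under Adavivint, overexpressing and empty vector cells did not differ in any histone gene at the threshold. The test by edgeR called 0 replication-dependent and 0 replication-independent genes, where 3.69% of all tested genes were higher and 4.8% lower. At an unadjusted p below 0.05, 4 replication-dependent genes were higher and 1 lower, and 2 variants were higher and 1 lower, where 10.6% of all tested genes were higher and 12.7% lower. DESeq2 called 3 replication-dependent genes and 1 variant higher, namely H2BC4, H2AC11, H2BC17 and H2AX, where it called 7.16% of all genes higher and 7.66% lower. H2BC4 had 9.28, 9.32 and 9.205 CPM with overexpression, against 5.53, 6.17 and 6.82 CPM with the empty vector, with no overlap and a log2 fold change of 0.59 ± 0.20 (edgeR adjusted p = 0.0851). H2AX was 0.28 ± 0.09 (adjusted p = 0.0581) on the same scale. Without drug-treated overexpressing library 2, edgeR called H2AC20 lower, at -1.32 ± 0.32. A p that misses the threshold does not show that the levels were the same.

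The drug effect itself differed between the vectors for 11 replication-dependent genes. By the interaction, the effect with overexpression minus that with the empty vector, 8 were higher and 3 lower, where 8.04% of all tested genes were higher and 11.2% lower. The 8 were H2BC12 (0.91), H1-2 (0.61), H2BC4 (1.48), H4C8 (0.94), H2AC12 (2.04), H2AC6 (0.82), H2BC11 (0.62) and H2AC13 (0.85), in log2 units. The 3 were H2AC25 (-1.11), H2BC26 (-0.98) and H2AC20 (-1.34). Among the 29 that would have passed the filter on the untreated THP-1 libraries alone, 7 were higher and 3 lower, and H2AC12 was not among these 29. H2BC12 was lower with overexpression without the drug and overlapped under it, with 133 ± 5.18 CPM in drug-treated overexpressing and 119 ± 10.9 CPM in drug-treated empty vector cells, against 4.27 ± 0.252 and 7.19 ± 1.36 CPM without the drug (SD, n = 3, interaction adjusted p = 0.00205). The H2A gene H2AC12 had 0.880, 0.701 and 0.614 CPM in OE+Ada and 0.309, 0.423 and 0.484 CPM in EV+Ada cells, against 0.0389, 0.0708 and 0.0317 CPM in OE and 0.133, 0.0993 and 0.116 CPM in EV cells, so its value rests on few counts. H2BC4 had 0.234, 0.437 and 0.538 CPM in untreated overexpressing and 0.666, 1.01 and 0.620 CPM in untreated empty vector cells, without overlap, and the reverse order under the drug, as given above. H2AC25 had 15.2, 16.0 and 14.3 CPM in OE+Ada and 16.6, 18.1 and 15.6 CPM in EV+Ada cells, and H2BC26 had 4.21, 3.97 and 4.36 CPM in OE+Ada and 4.68, 4.85 and 4.64 CPM in EV+Ada cells. The interaction shares the untreated libraries with the overexpression comparison above, so a gene low in untreated overexpressing cells enters both. H2BC12, H1-2, H2BC4, H4C8 and H2AC25 were called without any 1 of the 12 libraries, and the other 6 were not. The count of 8 was 4 without library 1 of untreated or of drug-treated empty vector cells. It was 5 without untreated overexpressing library 3 or any 1 of the drug-treated overexpressing libraries. The count of 3 was 1 without any 1 of the drug-treated empty vector libraries, without untreated overexpressing library 1 or 3, or without drug-treated overexpressing library 1 or 3.

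Several of these genes stand in pairs that start within 1000 bases of each other on opposite strands, a common layout of H2A and H2B genes. This view was chosen after the values were seen. GENCODE 29 held 12 such pairs among the members, with 219 to 357 bases between the starts, and H2BC17 was in 2 of them. Both genes were tested in 10 pairs. Under the drug both rose in 9 pairs with overexpression and in 10 with the empty vector. As 52 and 53 of the 54 tested replication-dependent genes rose, these counts say nothing particular of pairs. The 2 pairs with H2BC17 are not separate either, since their partners H3C12 and H2AC17 overlap. H3C12 shares 40.9% of its 50-base words with other genes, most often with H2AC17. By the interaction, both genes of 3 pairs were called and in the same direction: H2BC4 and H2AC6 (1.48 and 0.82), H2BC12 and H2AC12 (0.91 and 2.04), and H2AC25 and H2BC26 (-1.11 and -0.98). In 3 further pairs 1 gene was called, and no pair had opposite calls. H2AC12 passed the filter only through the drug-treated libraries, and H2AC6, H2AC12 and H2BC26 each lost the call without at least 1 library. Among the 54 tested replication-dependent genes 8 were called higher and 3 lower by the interaction. Whether paired genes shared calls more often than other genes was not tested. The pair of H2BC21 and H2AC20, 323 bases apart on chromosome 1, was the exception under the drug with overexpression. H2BC21 rose by 4.47 ± 0.12 with overexpression and 4.73 ± 0.13 with the empty vector, while H2AC20 had -0.42 ± 0.31 and 0.92 ± 0.31. Most of the stretch between their starts lies in the H2BC21 promoter printed above, which held the TATA box, the CCAAT box and the octamer core.

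The replication-dependent genes lie mainly in clusters, with 53 of 66 on chromosome 6 and 11 on chromosome 1, so the effect was set against position. The median log2 fold change of the tested genes was 4.47 on chromosome 6 and 3.09 elsewhere with overexpression, and 3.85 and 3.34 with the empty vector. Among the histones of the first chromosome 6 cluster, 4 genes without a histone symbol were tested, and 4 rose with each vector. Of all tested genes, 43.4% were higher with overexpression and 44.2% with the empty vector. 1 of the 4 is known by an identifier alone, and its exons overlap those of H2AC7 and H3C4, so its reads may be histone reads. For SLC17A4 the untreated groups differed by 0.0 ± 0.0 on the log2 scale, as a gene without counts there does. Its rise under the drug thus followed from the filter. TRIM38, a ubiquitin ligase gene, rose by 1.37 ± 0.06 with overexpression and 1.54 ± 0.06 with the empty vector, and HFE, an iron-regulating gene, by 4.53 ± 0.54 and 2.75 ± 0.50. These neighbours were chosen after the values were seen, and their part in the histone result was not tested. Genes whose annotated transcript runs more than 100 bases past the stem-loop had a median of 3.83 with overexpression (21 genes), beside 4.57 for 5 genes that stop sooner and 3.90 for 24 genes without a match. With the empty vector the medians were 3.42, 4.98 and 3.56. The sources used here do not give whether RNA was selected by poly(A), which bears on how stem-loop mRNAs are counted. Genes with under 10% of their 50-base words shared with other genes had a median of 4.24 with overexpression and 3.62 with the empty vector, and those that share more had 3.76 and 3.42.

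The genes that make and handle histone mRNA were read from 3 lists. Of 26 genes for histone mRNA end processing and decay, 12 were higher and 12 lower with overexpression, and 11 and 13 with the empty vector, shares near those of all tested genes, of which 43.4% were higher and 41.3% lower with overexpression and 44.2% and 41.1% with the empty vector. The median log2 fold changes were -0.04 and -0.12, beside 0.04 and 0.06 over all genes. SLBP, which binds the stem-loop and is named for that role, had 53.8, 54.9 and 52.6 CPM in OE+Ada and 61.02, 56.0 and 55.4 CPM in EV+Ada cells, against 99.98, 109.7 and 111 CPM in OE and 134, 118 and 103 CPM in EV cells, and fell by 0.99 ± 0.08 and 1.04 ± 0.08 on the log2 scale. CPSF2, a subunit of the complex that cuts both histone and polyadenylated transcripts, had 27.8, 25.2 and 24.7 CPM in OE+Ada and 32.1, 26.8 and 29.6 CPM in EV+Ada cells, against 129.7, 141 and 141 CPM in OE and 151, 141 and 138 CPM in EV cells, with log2 fold changes of -2.41 ± 0.07 and -2.28 ± 0.07. Neither gene showed overlap. WDR33 and FIP1L1, which belong to the polyadenylation machinery, rose by 1.48 ± 0.05 and 1.28 ± 0.05 with overexpression and by 1.40 ± 0.05 and 1.32 ± 0.05 with the empty vector. TUT7, which adds uridines to histone mRNA during decay, rose by 1.82 ± 0.06 and 1.76 ± 0.06, and ZNF473, a zinc finger protein of U7-dependent processing, by 1.62 ± 0.06 and 1.32 ± 0.06, with overexpression and with the empty vector in turn. CASP8AP2, a histone processing factor, rose by 1.34 ± 0.05 and 1.44 ± 0.06, and NPAT, the coactivator of histone gene transcription, by 0.36 ± 0.06 and 0.38 ± 0.06, in the same order of vectors. CASP8AP2 and NPAT are named for their roles, after their values were seen.

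S phase genes went the opposite way to the replication-dependent histones. Of 40 tested, 34 fell and 2 rose with overexpression, and 34 fell and 5 rose with the empty vector, where 41.3% of all tested genes were lower and 43.4% higher with overexpression and 41.1% and 44.2% with the empty vector. The median log2 fold changes were -1.30 and -1.25. The primase subunit PRIM1 had 3.84, 4.39 and 5.00 CPM in OE+Ada and 5.06, 5.34 and 4.82 CPM in EV+Ada cells, against 76.2, 80.5 and 80.1 CPM in OE and 53.9, 61.05 and 60.01 CPM in EV cells, with log2 fold changes of -4.16 ± 0.09 and -3.52 ± 0.09. The replicative helicase genes MCM3, MCM4 and CDC45 fell by 2.40 ± 0.05, 2.72 ± 0.06 and 3.28 ± 0.08 with overexpression and by 2.29 ± 0.05, 2.50 ± 0.06 and 2.89 ± 0.08 with the empty vector. Of 27 histone chaperones 18 fell and 7 rose with overexpression, and 17 fell and 7 rose with the empty vector, set against the same shares over all genes, with medians of -0.42 and -0.36. NASP, an H3 and H4 chaperone, changed by -2.22 ± 0.04 and -2.10 ± 0.04, and CHAF1B, a subunit of the replication-coupled assembly factor CAF-1, by -2.85 ± 0.08 and -2.25 ± 0.07. SPTY2D1, an H3 and H4 chaperone, rose by 1.60 ± 0.05 and 1.33 ± 0.05. SSRP1, a subunit of the FACT complex, changed by -1.94 ± 0.07 and -1.55 ± 0.07, and TONSL, which binds new H4, by -1.36 ± 0.05 and -1.48 ± 0.05. The adjusted p of the genes named from these lists was at most 4.66e-05. The part of these genes in the histone result was not tested.

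**Figure D5:**
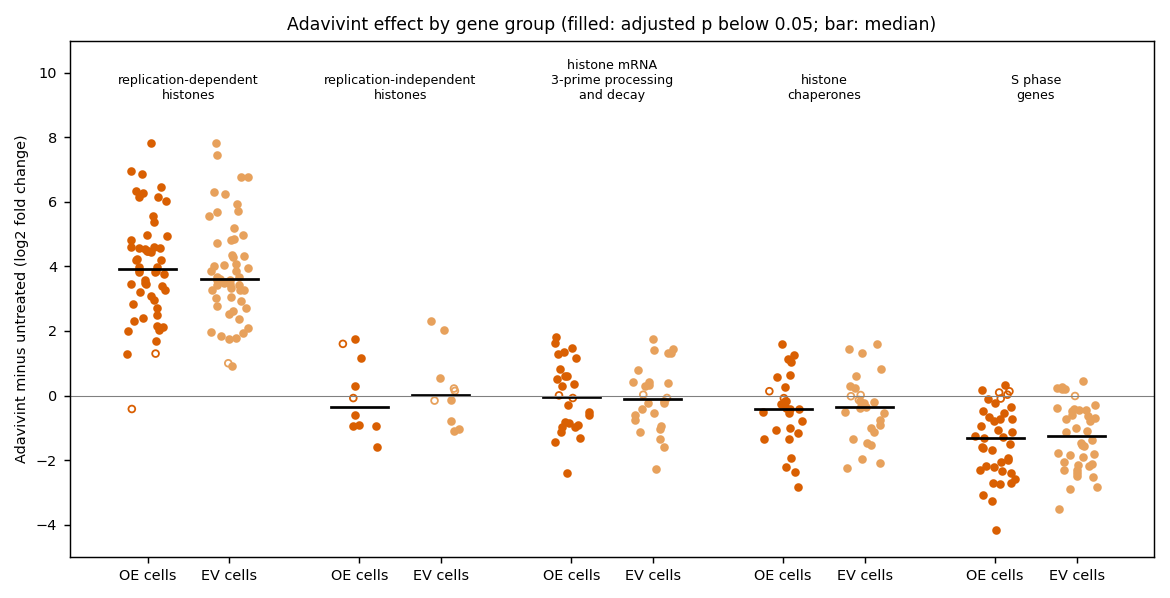
Log2 fold change (Adavivint minus untreated) of each tested gene in S100A9-overexpressing (OE) and empty vector (EV) THP-1 cells, by gene group. Filled points passed adjusted p below 0.05, and bars are medians. The replication-dependent histones lie almost wholly above 0, with medians of 3.93 and 3.60, while most S phase genes lie below 0, with medians of -1.30 and -1.25.

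In U937 cells the knockdown of S100A9 changed no histone gene at the threshold when all 6 libraries were used. The replication-dependent sum was 25.1 ± 3.14 CPM in shS100A9 cells and 29.5 ± 2.55 CPM in empty vector cells, and the variant sum 1942 ± 164 and 2091 ± 49.4 CPM. By edgeR 0 of 25 tested replication-dependent genes and 0 of 8 tested variants were called, where 0.23% of all tested genes were higher and 1.54% lower. At an unadjusted p below 0.05, 1 replication-dependent gene was higher and 4 lower, and 0 variants were higher and 1 lower, where 5.89% of all tested genes were higher and 8.37% lower. DESeq2 called 1 replication-dependent gene, H1-2, lower, where it called 1.58% of all genes higher and 3.9% lower, and edgeR called it lower, at -2.04 ± 0.26, without empty vector library 2. H1-2 had 1.97, 1.72 and 1.202 CPM in shS100A9 cells, against 6.59, 2.62 and 6.85 CPM in empty vector cells, with no overlap and a log2 fold change of -1.72 ± 0.41 (edgeR adjusted p = 0.119).

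Without the 2 libraries that stood apart, 1 replication-dependent gene was higher, 5 were lower and 22 were tested and not called. Among the variants 2 were higher, 2 lower and 4 not called. Of all tested genes 15.2% were higher and 17.7% lower. The replication-dependent share called lower was thus near that of all genes, and the share called higher was below it. H1-2 fell by 1.86 ± 0.17 on the log2 scale (adjusted p = 0.000255), H2BC4 by 1.18 ± 0.38, H2BC12 by 1.08 ± 0.25, H2AC6 by 1.06 ± 0.29 and H2AC18 by 0.87 ± 0.26. H2BC13 rose by 1.62 ± 0.41. Among the variants, H1-10 rose by 0.60 ± 0.10, while H2AZ1 fell by 0.22 ± 0.06 and H3-3B by 0.17 ± 0.05. These values rest on 2 libraries a group. The level of H1-10 shows what the 2 libraries did: it had 77.5, 76.6 and 118 CPM in shS100A9 cells, against 44.5, 129 and 57.2 CPM in empty vector cells, in which the highest single value belongs to empty vector library 2. H2AZ1 had 397, 445 and 224 CPM, against 476, 311 and 508 CPM, in which shS100A9 library 3 was lowest. The groups overlapped in H1-10 and H2AZ1, as in the other variants apart from H3-3B. H3-3B had 275, 298 and 217 CPM, against 324, 363 and 323 CPM, while H2AX had 40.3, 46.7 and 29.8 CPM, against 45.5, 45.2 and 45.7 CPM. H2AZ2 had 257, 265 and 180.2 CPM, against 265, 226 and 280.0 CPM, MACROH2A1 362, 357 and 376 CPM, against 384, 355 and 385 CPM, and H3-3A 372, 377 and 302 CPM, against 368, 264 and 377 CPM. MACROH2A2, at or below 0.0595 CPM in every U937 library, was not tested in that line.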

How the data were processed

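RNA-seq of 18 libraries, 3 in each of 6 groups, was analysed from a table of whole-number counts per gene that the authors deposited. Reads were aligned with HISAT2 2.0.4, per the submitters' processing notes. The counting tool, genome build, annotation, strand setting and RNA selection were not stated in the labels or notes read here, so reads of overlapping, antisense or near-identical genes cannot be told apart. Of 18670 rows 18642 had a symbol. GENCODE 29 held 77 of the 81 members, and the absent ones were H2AC18, H2AC19, H3C2 and H3C3.

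Counts were scaled by TMM and tested with the quasi-likelihood test of edgeR 4.0.16 in R 4.3.3, two-sided, with Benjamini-Hochberg adjustment over all genes tested and a threshold of 0.05. U937 was fitted on 6 libraries (13016 genes after edgeR's filter on low counts) and THP-1 on 12 (15403 genes). SE is the absolute log2 fold change over the root of the F statistic, CPM uses the TMM-scaled totals, and levels per kilobase use exon length. Shares of 50-base words, overlaps and the stem-loop were read from GENCODE 29 on GRCh38, and promoters from RefSeq on GRCh38.p14. Intervals are exact 95% intervals for a ratio of summed counts and, like the floor of 3 counts, cover counting error only. The fits were tested on simulated data with known folds.

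Values in every library are given for the tested replication-independent members, for the 5 replication-dependent members with the smallest p among those called in each direction of each comparison, for the 5 with the highest mean CPM, and for exceptions named after their values were seen. From the lists of processing, chaperone and S phase genes, members with the smallest p are named, and others for their role. The members, lists and left-out libraries were chosen with earlier results of these data known. 1 member and 1 marker are not reported by name here, but the member enters the counts and sums. Alternatives were other scalings and filters, DESeq2 1.42.0, a replicate block, fits on only the 6 libraries compared, and leaving out libraries.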

Additional observations from a re-analysis of the deposited data

Results flagged for a closer look

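In THP-1, the effect of Adavivint differed between S100A9-overexpressing and empty vector cells by edgeR's interaction test at an adjusted p below 0.05 for the 13 histone genes given here. The values are the log2 effect with overexpression minus that with the empty vector. They were negative for H2AC20 (-1.34), H1-10 (-1.12), H2AC25 (-1.11) and H2BC26 (-0.98). They were positive for H2AC12 (2.04), H2BC4 (1.48), H4C8 (0.94), H2BC12 (0.91), H2AC13 (0.85), H2AC6 (0.82), H2BC11 (0.62), H1-2 (0.61) and H2AX (0.61). Among all tested genes, 8.04% were positive and 11.2% negative by the same test. H1-10, H2AX, H2BC12, H1-2, H2BC4, H4C8 and H2AC25 were called without any 1 of the 12 libraries, and the other 6 genes lost the call without at least 1.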

How the results depend on the processing

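The Adavivint calls on replication-dependent genes moved little under the alternatives. Leaving out each library in turn gave 52 to 52 higher and 0 to 1 lower with overexpression, and 53 to 55 higher and 0 to 0 lower with the empty vector. For variants it gave 3 to 4 higher and 5 to 6 lower with overexpression, and 2 to 3 higher and 3 to 4 lower with the empty vector. With the empty vector 5 variants were higher under DESeq2 size factors in edgeR, upper-quartile factors and DESeq2. H3-3A with overexpression was 0.0191 under upper-quartile factors, against -0.08. For overexpression without the drug, leaving out a library gave 1 to 2 higher and 5 to 7 lower replication-dependent genes and 2 to 2 higher and 0 to 1 lower variants, and a fit on only the 6 libraries compared gave 1 and 4 replication-dependent genes. Under Adavivint, overexpression gave 3 higher replication-dependent genes by DESeq2 and by the fit on 6 libraries, 1 higher variant under upper-quartile factors, a filter of 1 CPM in 3 libraries and DESeq2, and 2 higher and 1 lower variants by the fit on 6 libraries. Leaving out a library gave 0 to 0 higher and 0 to 1 lower replication-dependent genes and 0 to 0 variants in either direction. The interaction gave 4 to 7 higher and 1 to 3 lower replication-dependent genes, and 1 to 1 higher and 2 to 2 lower variants. In U937, leaving out 1 library gave 0 to 1 lower replication-dependent genes and 0 to 0 in the other 3 counts. Leaving out empty vector library 2 and shS100A9 library 3 together gave 1 higher and 5 lower replication-dependent genes and 2 higher and 2 lower variants. DESeq2 gave 1 lower. The causes were not tested.

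The deviations of same-numbered libraries had r from -0.096 to 0.099 between THP-1 groups and from -0.507 to 0.239 in U937. With so few libraries a group, these values cannot tell whether same-numbered libraries were cultured or prepared together. In U937 the highest r of all pairs was between empty vector library 2 and shS100A9 library 3, the libraries that stood apart from their groups. With the replicate number as a block, the interaction called 5 higher and 1 lower replication-dependent genes, against 8 and 3 without it, and the U937 count stayed at 0. Over all genes the U937 block called 0 higher and 3 lower, against 30 and 201.

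Over single genes, 752 of the alternative values kept their direction and side of the threshold, 50 no longer passed, 16 newly passed and 1 changed sign. In overexpression without the drug, the calls of H2AX, H2BC26 and H4C8 were lost under some alternatives. Upper-quartile factors moved the median log2 fold change of all genes under the drug to 0.13 with overexpression and 0.14 with the empty vector, against 0.04 and 0.06. Library totals alone called 393 genes higher and 1555 lower for overexpression under Adavivint, against 569 and 740, and 961 and 2379 for the interaction, against 1239 and 1729. Genes with few counts without the drug limit the precision of the largest folds.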
